A study of Mus musculus with 8 samples.

Results

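Loss of a cluster of CTCF sites in Chic1 was set against inversion of another cluster, in Linx, by 5C of the X-inactivation centre, to ask how contacts differ between an allele that lacks one anchor and an allele in which another anchor is flipped. The comparison used the 4 libraries labelled Chic1-14kbD or Linx-51kb-INV, of 8 in the series, and was made over pairs of chrX primers at most 400 kb apart. All 8 libraries come from undifferentiated (day 0) male E14 mouse embryonic stem cells, XY, 129/Ola, grown on gelatin in medium with serum and LIF, so that each cell holds a single X chromosome and every contact comes from the edited allele. In Chic1-14kbD cells, Cas9 had removed a 14 kb interval with all the CTCF sites that the study places in Chic1, whereas Linx stands in its normal orientation. In Linx-51kb-INV cells, an intronic interval of Linx with its CTCF sites is inverted, whereas Chic1 is complete. The Chic1-14kbD libraries are 2 replicates of a single clone, and the Linx-51kb-INV libraries come from 2 independent clones, and a pair of values below is replicate 1 followed by replicate 2. Chic1-4kbD is a smaller deletion in Chic1 that, by the study, removes some but not all of the same CTCF sites. 245kb-INV is an inversion that carries Linx and Chic1 together. Both alleles, with 2 clones each, entered the same fit and are quoted beside the comparison. Whether a value shared by the 2 deletions goes with their lost Chic1 sites or with the flip in Linx-51kb-INV was not tested. Wild-type libraries were not analysed here, so "higher in Chic1-14kbD" and "lower in Linx-51kb-INV" state the same measurement.

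The 5C assay fixes chromatin, cuts it with HindIII, ligates ends that lie close together in the nucleus and counts each junction with a forward and a reverse primer. CTCF is a DNA-binding factor that halts the extrusion of chromatin loops in an orientation-dependent way, and its sites at the base of a loop usually point towards each other. The X-inactivation centre is split into neighbouring topologically associating domains (TADs). The Tsix-TAD holds Linx, a non-coding transcript, together with Nap1l2, Cdx4, Chic1, Tsx and the enhancer Xite, which drives Tsix, the antisense repressor of Xist. The Xist-TAD holds Xist, the RNA that silences the X chromosome, its activators Jpx, Ftx and Rlim, and the gene Cnbp2. Linx, Chic1 and Xite are known contact anchors of the Tsix-TAD.

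In mm9 coordinates the Linx interval was taken as 10 HindIII fragments, chrX:100453762-100496034, within the annotated gene 4930519F16Rik (Linx, minus strand, chrX:100378310-100507121). It spans 42.3 kb, less than the 51 kb in the name of the allele, and sequence outside these fragments was not mirrored. No Linx exon lies in it, and the only annotated exon it overlaps belongs to Gm14848 (chrX:100494354-100494770). The deleted part of Chic1 (plus strand, chrX:100551815-100591431) overlaps 5 fragments, chrX:100565598-100583702, of which the last is partly retained, and the emptied ones hold a Chic1 exon at chrX:100568938-100569093. To show what is flipped and what is lost, both stretches were searched on both strands for the CTCF-like core CCNCNAGNNGGC, which does not overlap another motif searched. The Linx interval held 2 matches, both on the plus strand, in introns of Linx, and the Xite fragments (chrX:100623271-100640516) held 1 on each strand, in introns of Tsix. The deleted Chic1 fragments held 0, which says only that these letters are not in that stretch. Of 108 stretches of the map as long as the Linx interval, 42.6% held at least 1 match and 14.8% held 2 or more, so the count in Linx is not unusual for its length. Of 253 stretches as long as the Chic1 interval 22.1% held a match, and of 266 as long as the Xite interval 3.01% held 2 or more. CTCF binding was not measured in these files. Each sequence below is read 5′ to 3′ on the strand of its match, with the core in capitals.
Linx, first match, chrX:100455369-100455428, plus strand: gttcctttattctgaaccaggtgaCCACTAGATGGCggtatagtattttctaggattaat
Linx, next match, chrX:100469856-100469915, plus strand: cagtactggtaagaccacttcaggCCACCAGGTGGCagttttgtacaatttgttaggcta
Xite, plus-strand match, chrX:100630090-100630149: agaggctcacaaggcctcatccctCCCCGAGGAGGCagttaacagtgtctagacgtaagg
Xite, minus-strand match, chrX:100639262-100639321: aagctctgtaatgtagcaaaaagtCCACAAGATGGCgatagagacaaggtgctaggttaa
On the reference allele both Linx matches thus read towards Xite, and on the inverted allele the same letters lie on the other strand and read away from it.

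The counts bore out both labels. At the emptied Chic1 fragment chrX:100567977-100576563, the inversion clones held 16235 and 21166 reads, against 428 and 27 in the deletion replicates. Summed over the 4 emptied fragments, the deletion replicates kept 1.13% and 1.96% of the mean share of reads in the 4 libraries of the inversions. The partly retained fragment chrX:100579405-100583702 kept its reads, with 38705 and 2746, or 103% and 95.7% of that mean share. For the inversion, 8 primer pairs that join the flanks to the end of the interval brought next to them were divided by the 8 that join them to their reference neighbour. The log2 ratio was 0.91 and 0.78 in the inversion clones, and it lay between -2.84 and -2.05 in the other 6 libraries. The edits were therefore present in the libraries labelled with them and in no other, apart from the fragment chrX:100565598-100567847, which the smaller deletion also depleted (3002 and 2615 reads in Chic1-4kbD).

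**Figure D1:**
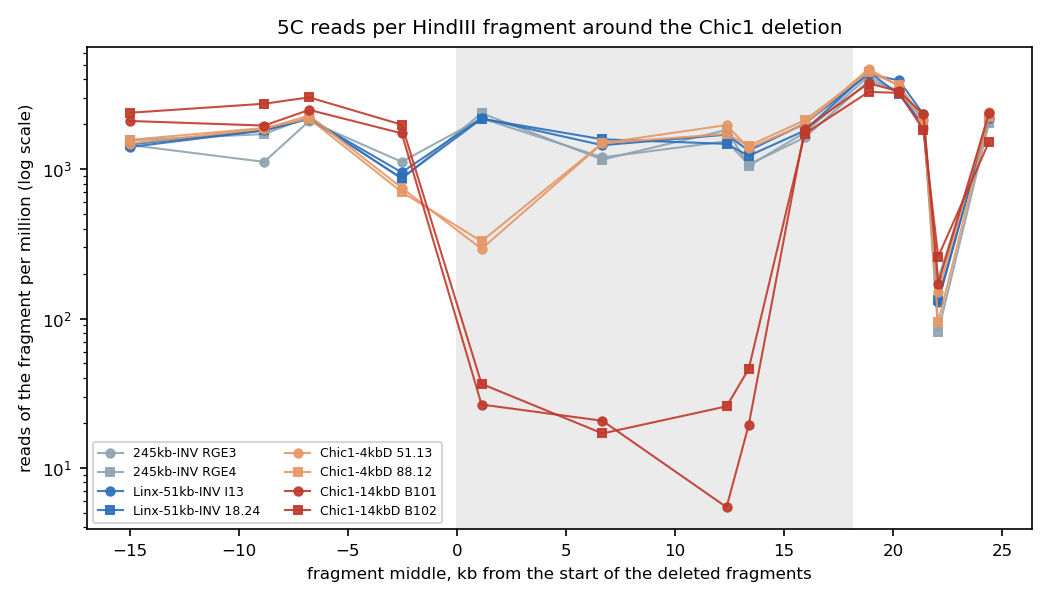
Reads of each HindIII fragment as a share of the library, in CPM (log axis), against the position of the fragment's middle, in kb from the start of the deleted Chic1 fragments (grey), with a line for each of the 8 libraries (circles and squares, replicates 1 and 2). Both Chic1-14kbD libraries drop at 4 fragments and keep the fifth, and the Chic1-4kbD libraries drop at the first fragment alone.

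Total counts were 11510727 and 13777885 in Linx-51kb-INV and 21046109 and 1614282 in Chic1-14kbD, so Chic1-14kbD replicate 2 is the least precise library, with a median of 8 reads per primer pair within 400 kb. Counts were summed over primer pairs and set against the count expected from the decay of contacts with distance in the same library, at positions mirrored inside an inversion and shortened by a deletion. Levels are given as log2 O/E, observed over expected, where 0 is the level that distance alone predicts. There is no correction for the total of each fragment or the efficiency of its primer, so a level by itself does not show contact beyond distance. A log2 fold change is Chic1-14kbD minus Linx-51kb-INV, with its standard error (SE), from edgeR's quasi-likelihood test of the 8 libraries. Adjusted p-values are Benjamini-Hochberg values for the 777 features fitted, against a threshold of 0.05. In the library titles, each Chic1-14kbD library has a prefix of its own (B101 and B102), as does each 245kb-INV library (B27 and B28). Both Linx-51kb-INV libraries share their prefix (B29) with Chic1-4kbD. Whatever these prefixes stand for and the 14 kb deletion cannot be told apart.

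The map as a whole shows how far such differences occur away from the edits. Of 135 pairs of 50 kb tiles in the window chrX:100303826-101227148, which spans both TADs and the region upstream of Linx, 33.3% passed the threshold, 25 higher in Chic1-14kbD (18.5%) and 20 lower (14.8%). Of 545 tile pairs with both ends outside the window, where neither allele is edited, 26.8% passed as well, 88 higher (16.1%) and 58 lower (10.6%). The count of called tile pairs in the window is thus near its background, and the median log2 fold change was 0.12 in both sets. In Chic1-4kbD against the same Linx-51kb-INV libraries, which share a title prefix, 8.89% of the window (9 higher, 3 lower) and 0.183% of the rest (1 of 545, with 25 at an unadjusted p below 0.05) passed. In Chic1-14kbD against Chic1-4kbD, 17% of the window and 16.1% of the rest passed. The differences in the unedited map therefore moved with the Chic1-14kbD libraries, and their cause was not tested. These 3 contrasts share libraries and are given side by side, not as independent evidence.

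**Figure D2:**
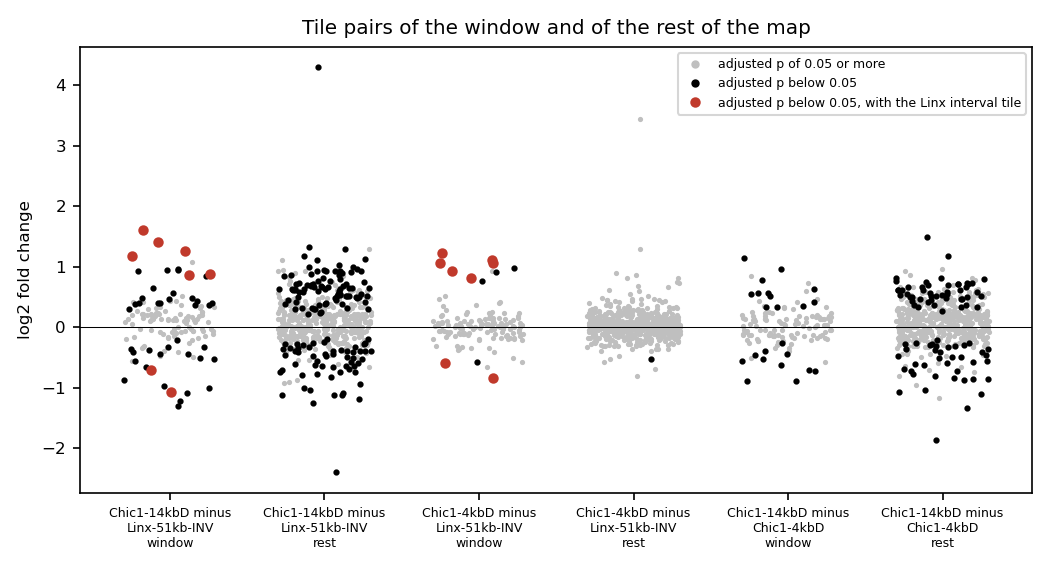
Log2 fold change of each tile pair, as points spread sideways for legibility, for the window (135 tile pairs) and the rest of the map (545) in the 3 contrasts, with black and red points past the threshold. In the rest of the map 146 tile pairs passed with Chic1-14kbD against Linx-51kb-INV, 1 with Chic1-4kbD against Linx-51kb-INV and 88 between the deletions, and the red points, tile pairs with the Linx interval tile, appear only in the 2 contrasts that include Linx-51kb-INV.

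The tile of the Linx interval (chrX:100453826-100503825) differed as a block. Of its 8 tile pairs with partners to the right, 6 were higher in Chic1-14kbD, with a median log2 fold change of 1.03. Of its 3 tile pairs with partners to the left, 2 were lower, with a median of -0.72. The same numbers, 6 higher to the right and 2 lower to the left, passed in Chic1-4kbD against Linx-51kb-INV, and 0 of the 12 tile pairs with this tile passed between Chic1-14kbD and Chic1-4kbD in edgeR, with 1 at an unadjusted p below 0.05. Among the other 123 tile pairs of the window 30.1% passed, 19 higher and 18 lower, near the 26.8% of the rest of the map.

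**Figure D3:**
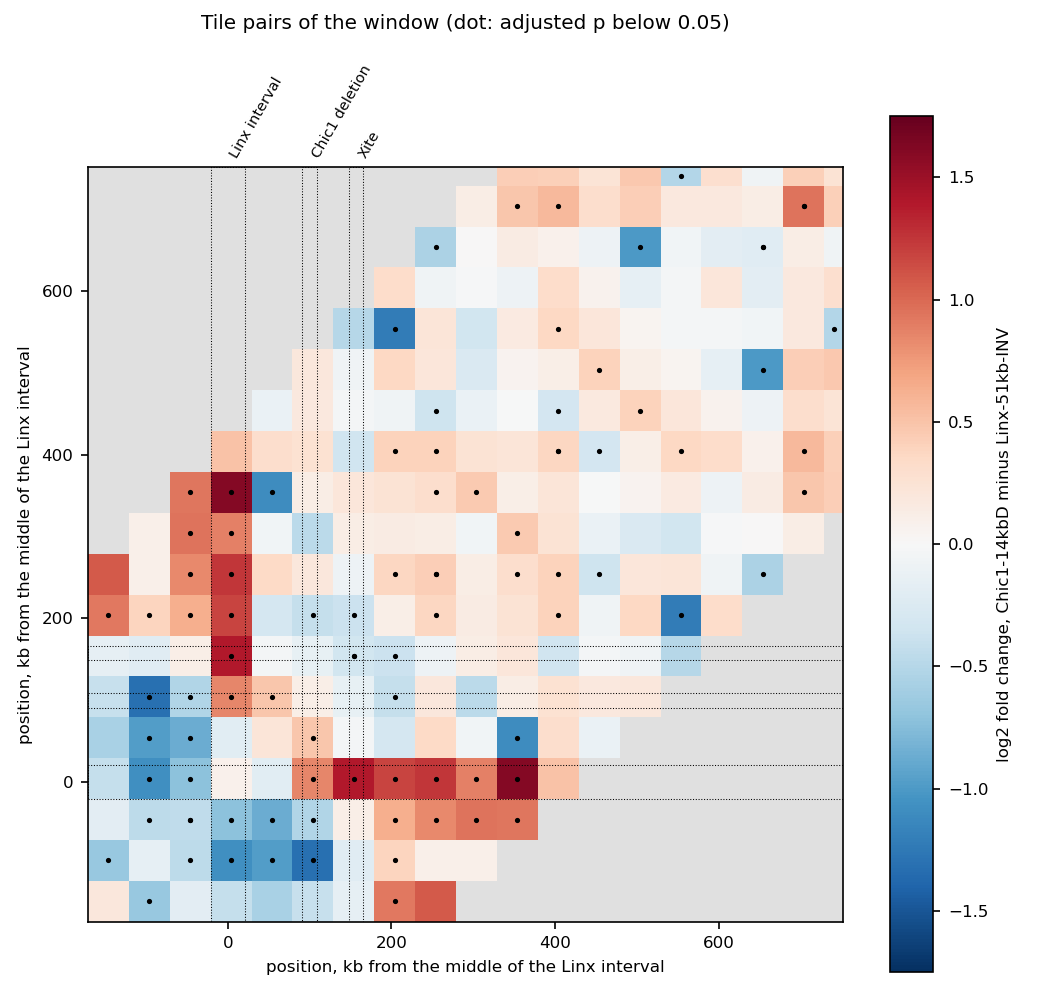
Log2 fold change (Chic1-14kbD minus Linx-51kb-INV) of the tile pairs of the window, drawn symmetrically, with both axes in kb from the middle of the Linx interval, dots for an adjusted p below 0.05 and dotted lines at the Linx interval, the Chic1 deletion and Xite. The column of the Linx interval is red from the row of Chic1 upwards, to 1.61 with the tile of Ftx and Cnbp2, and blue below, to -1.07 with the tile of Nap1l2, while other dots lie scattered over the window.

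Contacts of the Linx interval with Xite differed most of all locus pairs in the direction of the deletion. The 25 primer pairs that join them summed to 3448 and 4883 reads in the inversion clones and to 27632 and 2746 in the deletion replicates. Their log2 O/E was 0.84 and 1.13 in the inversion clones and 2.40 and 3.01 in the deletion replicates, so the groups did not overlap. The log2 fold change was 1.73 (adjusted p = 2.98e-07, SE 0.17), a 3.32-fold difference, and 2 of the 545 tile pairs in the rest of the map (0.367%) were as large in either direction, at -2.40 and 4.29. Tile pairs and locus pairs hold different numbers of primer pairs, so this share and those for the other locus pairs are only a rough guide. Of the 25 single primer pairs, 22 were higher in both deletion libraries than in both inversion libraries and 0 were lower, whereas over the 40384 primer pairs of the map with a mean count of at least 10 the shares were 26.1% and 15.3%. The Chic1-4kbD clones stood at 2.47 and 2.13, 1.31 above Linx-51kb-INV (adjusted p = 2.14e-05, SE 0.17), and the value of Chic1-14kbD minus Chic1-4kbD was 0.42 (adjusted p = 0.0988, SE 0.17).

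The genes around Xite showed the same order. For the Linx interval and Tsx, a gene just left of Xite that is expressed in testis, log2 O/E was 0.07 and -0.15 in the inversion and 1.12 and 1.14 in the deletion. The log2 fold change was 1.17 (adjusted p = 2.90e-06, SE 0.14), and 23 of 35 primer pairs were above the inversion in both replicates. For the Linx interval and the rest of Tsix with Xist (chrX:100640517-100681342) the inversion clones stood at 0.33 and 0.41 and the deletion replicates at 1.53 and 1.60. The difference was 1.19 (adjusted p = 5.61e-08, SE 0.11), with the smallest p of the 25 locus pairs. Across the boundary, contacts of the Linx interval with the Xist-TAD were at -1.37 and -1.11 in the inversion, but at 0.02 and -0.15 in the deletion (log2 fold change 1.17, adjusted p = 4.11e-07, SE 0.12). The Xist-TAD was taken from chrX:100667701, so this locus pair shares fragments with that of Tsix and Xist. Again the Chic1-4kbD clones lay near Chic1-14kbD, at 1.09 and 0.94 with Tsx, 1.58 and 1.51 with Tsix and Xist, and -0.26 and -0.34 with the Xist-TAD. None of these values of Chic1-14kbD minus Chic1-4kbD passed the threshold (adjusted p from 0.188 to 0.934). The 245kb-INV clones, which also carry Linx in reverse but bring it nearer to Xite, stood at 1.10 and 1.42 for Linx and Xite and at -1.36 and -1.34 for Linx and the Xist-TAD.

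To the left of the interval the order was turned. Contacts of the Linx interval with the left part of Linx, which includes Nap1l2, a nucleosome assembly gene of neurons (chrX:100378306-100453761), were at 0.75 and 0.61 in the inversion and at -0.10 and -0.08 in the deletion. The log2 fold change was -0.77 (adjusted p = 6.27e-06, SE 0.10), and of 98 primer pairs tested 56 were below the inversion in both replicates and 5 above. With the region upstream of Linx (chrX:100303826-100378305) the inversion clones were at -0.30 and -0.16 and the deletion replicates at -0.88 and -1.15 (log2 fold change -0.77, adjusted p = 0.00127, SE 0.16). For these leftward contacts, 9.17% of the tile pairs in the rest of the map were as large, so they stood out less from the background than the contacts with Xite. Chic1-4kbD was lower than Linx-51kb-INV by a similar amount, -0.62 (adjusted p = 0.000314) and -0.73 (adjusted p = 0.0102).

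The 10 fragments of the Linx interval shared this pattern. Towards Tsx, Xite, Tsix and Xist, the deletion replicates were above the inversion clones at 10 of 10 fragments, with differences from 0.22 to 2.01 and a median of 1.44. Towards the left part of Linx and the upstream region they were below at 10 of 10, with differences from -1.83 to -0.25 and a median of -0.96. Of fragments outside the window, with partners at the same distances, 32.1% (183 of 570) separated in the first way to the right and 26.3% (191 of 725) in the second way to the left, a background added after seeing the data. The fragment chrX:100455324-100468776, which holds the first of the core matches shown above, had the highest rightward level of the 10 in every library. It stood at 2.63 and 2.83 in the deletion and at 1.38 and 1.06 in the inversion. The fragment with the next match, chrX:100468777-100475371, was among the lowest in both alleles, at 0.60 and 1.27 against -1.15 and -0.69. At the right end of the interval, chrX:100483947-100496034, the rightward levels nearly met (0.06 and -0.26 against -0.37 and -0.26). Summed over all partners, the log2 ratio of rightward to leftward O/E was -0.24 and -0.29 in the inversion and 1.24 and 1.42 in the deletion. The sides are read with different partner primers and without correction for their efficiency, so only differences between libraries can be read, not a lean to a side. The group means were -0.27 ± 0.035 (SD, n = 2 clones) and 1.33 ± 0.13 (SD, n = 2 replicates), a difference of 1.60. A two-sided exact permutation test gave p = 0.3333, the smallest value that 2 against 2 libraries allow, so it could not reach 0.05. This ratio was 1.14 and 1.23 in Chic1-4kbD. Over the same primer pairs it was 0.18 and 0.21 in 245kb-INV, with only the expected counts taken at mirrored positions. The sides are those of the reference, and partners inside that inversion change sides, so its values are not a rightward-to-leftward ratio on that allele.

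**Figure D4:**
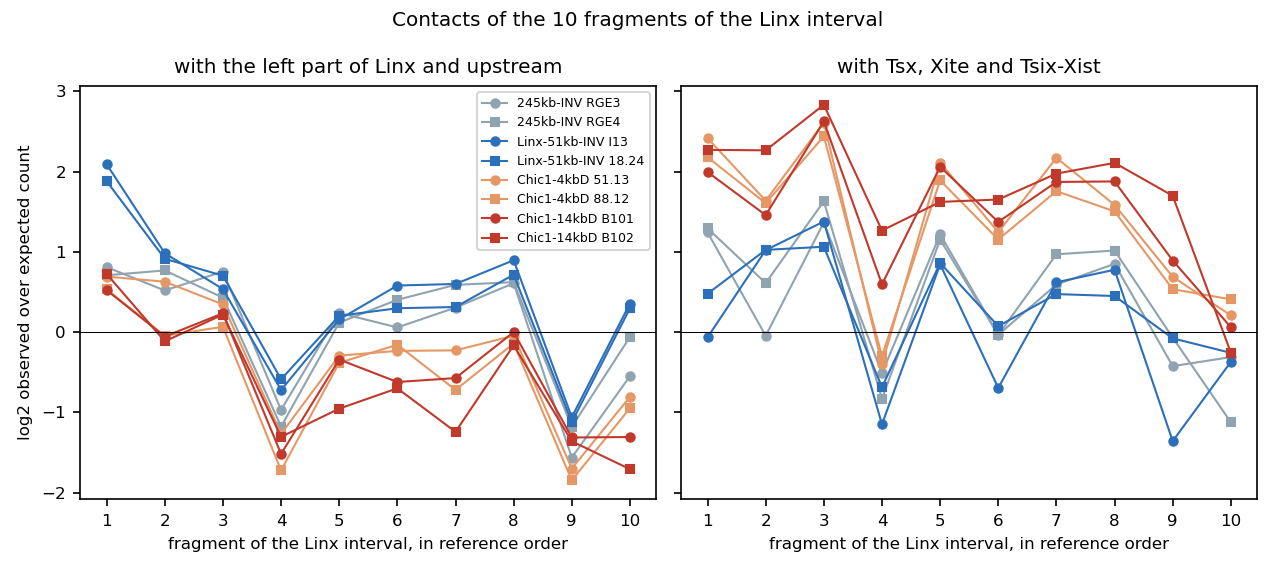
Log2 O/E of each of the 10 fragments of the Linx interval, in reference order, with the left part of Linx and the upstream region (left panel) and with Tsx, Xite, Tsix and Xist (right panel), with a line for each of the 8 libraries. Linx-51kb-INV (blue) lies above Chic1-14kbD (red) at every fragment on the left and below it at every fragment on the right, and Chic1-4kbD (orange) runs near Chic1-14kbD.

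Between the Linx interval and Chic1, a gene expressed in many tissues, the values lay closer together. The left Chic1 flank (chrX:100544758-100565597) holds the Chic1 promoter. Its contacts with the Linx interval were at 0.87 and 0.84 in the inversion and 1.14 and 1.38 in the deletion, a log2 fold change of 0.40 (adjusted p = 0.0194, SE 0.13), which 31.6% of the tile pairs in the rest of the map reached. The call was lost without Chic1-14kbD replicate 2 (0.29, adjusted p = 0.198) and without Linx-51kb-INV replicate 1 (0.42, adjusted p = 0.0625) or 2 (0.38, adjusted p = 0.0937), and with TMM library sizes (0.35, adjusted p = 0.0658). The right flank (chrX:100583703-100592173) was at 1.15 and 0.68 against 1.55 and 1.50 (log2 fold change 0.60, adjusted p = 0.00451, SE 0.15), and the call was lost without Linx-51kb-INV replicate 2 (0.38, adjusted p = 0.109). The values of both flanks with Linx lay above 0 in all 4 libraries, including those in which the sites between the flanks had been removed. Without correction for fragment totals, these levels do not show contact beyond distance. The clones of Chic1-4kbD stood higher for the right flank, at 2.27 and 2.18, and Chic1-14kbD was lower than Chic1-4kbD by 0.70 (adjusted p = 0.00258, SE 0.15). Contacts of the Linx interval with the Cdx4 side, the stretch between Linx and Chic1 with the homeobox gene Cdx4, were at 1.12 and 0.79 against 0.67 and 0.72. Their log2 fold change of -0.28 (adjusted p = 0.0777) did not pass and was 0.26 without a primer pair that held up to 39.7% of its reads in a library. It passed with reference coordinates (-0.45, adjusted p = 0.0072) and without Linx-51kb-INV replicate 2 (-0.43, adjusted p = 0.0296).

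In contacts of the right Chic1 flank with Xite and with the upstream region, Chic1-14kbD stood below each of the other alleles. Its contacts with Xite were at 1.75 and 1.79 in Linx-51kb-INV, 1.76 and 1.64 in Chic1-4kbD and 1.96 and 2.28 in 245kb-INV, but at 0.98 and 0.60 in Chic1-14kbD. Against the inversion the log2 fold change was -0.95 (adjusted p = 0.000142, SE 0.16), and against Chic1-4kbD it was -0.89 (adjusted p = 0.000708, SE 0.16). In the rest of the map, 4.04% of the tile pairs were as large as the value against the inversion, and 16.1% passed between the deletions. Its contacts with the upstream region were at 0.82 and 0.24 in the inversion and at -0.99 and -1.75 in the deletion, the largest difference among the 25 locus pairs (-1.81, adjusted p = 4.14e-05, SE 0.27, 0.285-fold), with Chic1-4kbD at -0.31 and 0.02 in between. Here Chic1-14kbD was lower than Chic1-4kbD by 1.12 on the log2 scale (adjusted p = 0.00607, SE 0.27), whereas Chic1-4kbD minus Linx-51kb-INV was -0.69 (adjusted p = 0.281). Of 18 single primer pairs between the right flank and the upstream region, 11 were below the inversion in both replicates and 0 above. Together they held 1859 and 1442 reads in the inversion and 1456 and only 53 in the deletion. In the rest of the map 0.367% of the tile pairs, which hold other numbers of primer pairs, differed as much. Its contacts with the Xist-TAD, at -1.02 and -1.08 against -1.19 and -1.90, did not pass (log2 fold change -0.43, adjusted p = 0.0749, or -0.85 and 0.00178 without Chic1-14kbD replicate 1), and neither did those with the Cdx4 side (-0.02, adjusted p = 0.914). The total reads of the 5 fragments of the right flank, as a share of the inversions' mean, were 88.9% to 130% in Chic1-14kbD replicate 1 and 70.8% to 196% in replicate 2, and those of the 4 fragments of the left flank were 115% to 183% and 139% to 209%. The part of these totals in the flanks' values was not tested.

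The left Chic1 flank gave other values. With Xite it stood at 0.70 and 0.22 in the inversion and at 0.63 and 1.33 in the deletion, which overlap (log2 fold change 0.53, not past the threshold, adjusted p = 0.102, SE 0.24). This passed with TMM library sizes or reference coordinates (both 0.77, adjusted p = 0.0358 and 0.0216) and without Chic1-14kbD replicate 1 (0.85, adjusted p = 0.0189). With the upstream region it was lower in the deletion, -0.55 and -0.57 against -1.37 and -1.92 (log2 fold change -1.02, adjusted p = 0.0394, SE 0.36), but the call was lost when any of the 4 libraries was left out (-1.36 to -0.81, adjusted p from 0.0504 to 0.247). It was also lost, at a like size, with TMM (-1.02, adjusted p = 0.0658) and without primer pairs that hold over 25% of the reads (-1.05, adjusted p = 0.0776). With the Cdx4 side (0.05) and the Xist-TAD (0.21) its values did not pass. Across the deletion itself, 8 kept primer pairs join the flanks. Their log2 O/E was 1.28 and 1.11 in Chic1-14kbD and 0.63 and 0.58 in Linx-51kb-INV, at positions that already allow for the shortened distance. This pair was added after its values were seen and was not tested.

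Contacts of Xite with the Xist-TAD were also higher in the deletion. Their log2 O/E was -1.59 and -1.55 in Linx-51kb-INV and -1.14 and -0.97 in Chic1-14kbD (log2 fold change 0.52, adjusted p = 0.00313, SE 0.12), and 22.4% of the tile pairs in the rest of the map were as large. In Chic1-4kbD they stood at -1.24 and -1.17, a value of 0.36 above the inversion that did not pass (adjusted p = 0.164). Xite with the Cdx4 side (0.35, adjusted p = 0.215, or 0.66 and 0.0220 without Chic1-14kbD replicate 1) and with the upstream region (-0.24, adjusted p = 0.443) did not pass.

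Over whole domains no difference passed the threshold. The log2 fold change was -0.09 within the Tsix-TAD (adjusted p = 0.170, SE 0.047), 0.07 within the Xist-TAD (adjusted p = 0.164, SE 0.038) and 0.16 between them (adjusted p = 0.0607, SE 0.062). The value between them passed with reference coordinates (0.17, adjusted p = 0.0409), and that within the Xist-TAD passed without Chic1-14kbD replicate 1 (0.10, adjusted p = 0.0332). The control pairs further along the chromosome, which no edit touches, gave larger values. Contacts of the Xist-TAD with the next domain (chrX:101230387-101899788) were at -0.28 in both inversion clones and at -0.57 and -0.65 in the deletion (-0.33, adjusted p = 0.000145, SE 0.056), and those within the next domain differed by -0.23 (adjusted p = 3.66e-05, SE 0.034). Both controls also passed between Chic1-14kbD and Chic1-4kbD, so differences of this size also occurred where no edit lies. With TMM library sizes the values were -0.43 and -0.21, and neither passed (adjusted p = 0.0879 and 0.542). In all, 14 of 25 locus pairs passed (56%), 7 in each direction, 2 of them controls. Some locus pairs share fragments, so they are not independent of each other.

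**Figure D5:**
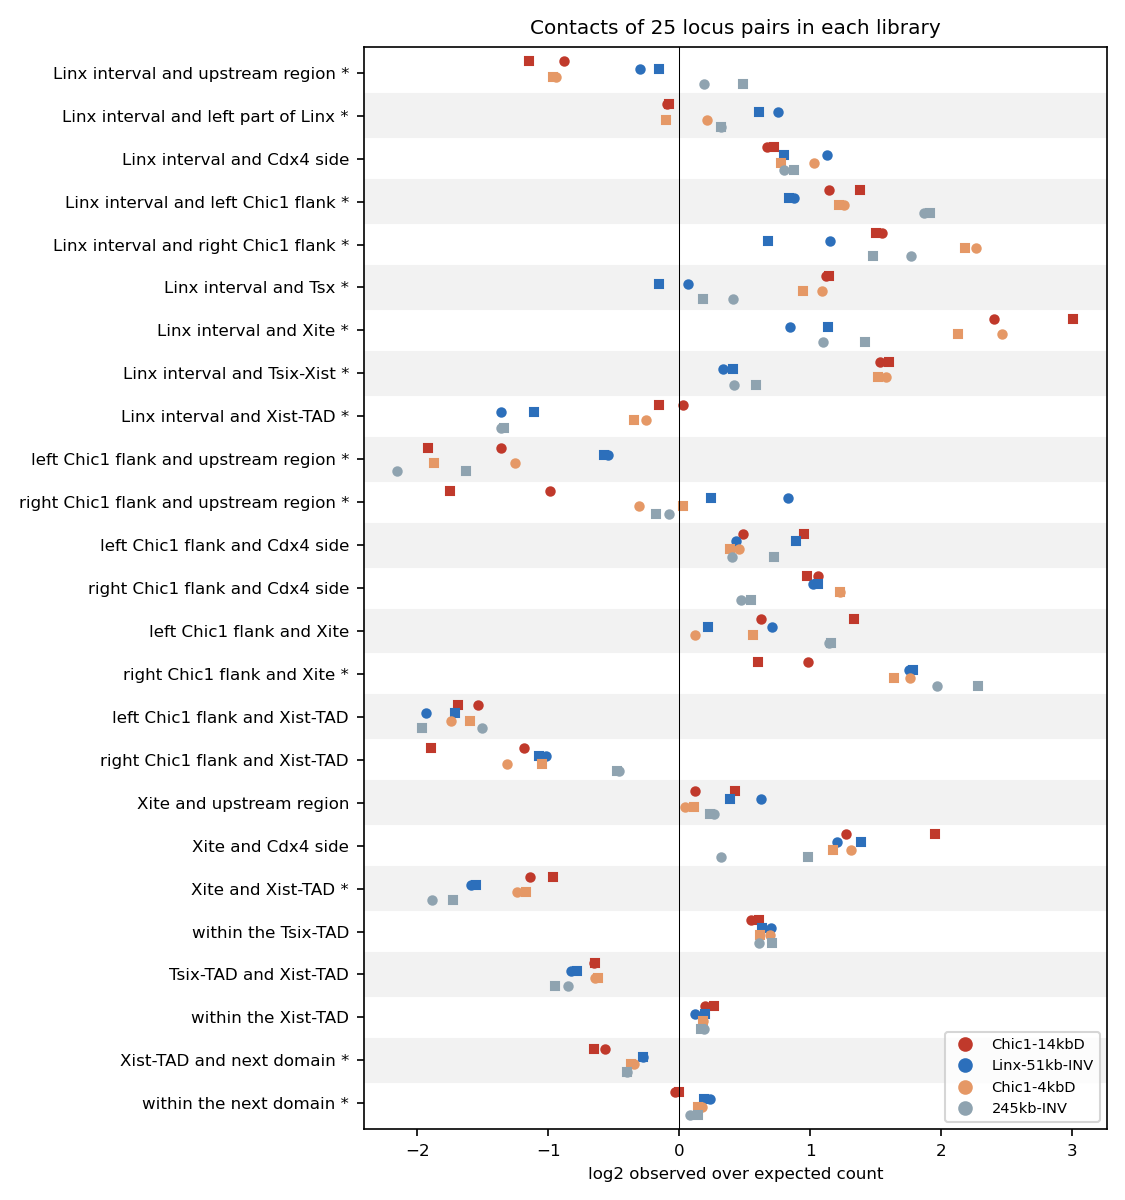
Log2 O/E (x axis) of the 25 locus pairs in each library, in rows, with a circle for replicate 1 and a square for replicate 2 of each allele and an asterisk for an adjusted p below 0.05 between Chic1-14kbD (red) and Linx-51kb-INV (blue). In the rows from Linx and Tsx to Linx and the Xist-TAD the orange points of Chic1-4kbD lie with the red, and in the rows of the right Chic1 flank with the upstream region and with Xite the red points stand alone.

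Of the 45 called tile pairs of the window, the 10 with the smallest p in each direction were examined. Of the 10 higher ones, 5 involved the Linx interval tile, and they joined it to the tiles of Tsx and the start of Tsix (1.41), Chic1 (0.86), Xist and Jpx (1.18), the stretch between Jpx and Ftx (1.26), and Ftx and Cnbp2 (1.61). The tile to its left in Linx (chrX:100403826-100453825), which lies outside the mirrored fragments, was also higher with the tile of Xist and Jpx (0.64, adjusted p = 0.00192) and with the next tile (0.84, adjusted p = 0.00152). Both of these passed in Chic1-4kbD against Linx-51kb-INV too, at 0.76 and 0.97. The edges of the inversion are approximate, and whether part of this tile is inverted as well was not tested. The other 3 were the tile right of Jpx with itself (0.43), the tile of Rlim, which encodes a ubiquitin ligase that activates Xist, with itself (0.95, or 0.57 without Chic1-14kbD replicate 2), and the Cdx4 tile with the Chic1 tile (0.49). The last pair of these also passed between the deletions, as did the Rlim tile (1.14).

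Of the 10 lower ones, 6 lay to the left. The tile of Nap1l2 was lower with the Linx interval tile (-1.07), the Cdx4 tile (-0.97) and the Chic1 tile (-1.31, adjusted p = 2.00e-06, SE 0.16). The tile left of the interval in Linx was lower with the interval tile (-0.72, or -0.42 with reference coordinates), with the Cdx4 tile (-0.87) and with itself (-0.44). For Nap1l2 and Chic1, log2 O/E was 0.24 and -0.06 in the inversion, -0.58 and -0.39 in Chic1-4kbD and -0.995 and -1.53 in Chic1-14kbD, and both steps passed the threshold (adjusted p = 0.0362 and 0.00245). In each of the other 4, including the lower tile pair with the smallest p, 1 primer pair held over 25% of the tile pair's reads in an inversion library, and none of the 4 passed when such primer pairs were left out. Of these, 2 are described here. For the Cdx4 tile with that of Ftx and Cnbp2, it joined chrX:100525212-100536803 to chrX:100828461-100831160, with 2487 and 3916 reads in the inversion, 1907 and 1275 in Chic1-4kbD, and 373 and 27 in Chic1-14kbD. For the upstream tile with that of Nap1l2, it joined chrX:100330549-100332221 to chrX:100394772-100398344, with 5282 and 7101 reads in the inversion and 773 and 16 in Chic1-14kbD. The primer pairs described held 40.5% to 75.9% of their tile pairs' reads in the inversion libraries and 0.929% to 8.85% in the deletion libraries. Without them the values were 0.50 in place of -1.09 and 0.19 in place of -0.67. Primer pairs with over 25% of a tile pair's reads in a library occurred in 10 of the 20 lower and 2 of the 25 higher calls of the window, and in 25 of the 58 lower and 9 of the 88 higher calls of the rest. Without them the window held 29 higher and 11 lower calls, of 135 tile pairs. The lower tile pair with the smallest p outside the window, chrX:101227149-101277148 with chrX:101377149-101427148 (-2.40), carried 1 as well, with 12353 and 12483 reads in the inversion against 1753 and 82 in the deletion. Without it the value was -1.23. The higher tile pair with the smallest p outside the window was a tile with itself, chrX:99153826-99203825 (0.89, adjusted p = 1.39e-06), and no primer pair held over 9.10% of it.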

How the data were processed

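The 5C libraries were made by the authors from HindIII-digested, ligated chromatin, and trimmed single-end reads were aligned with Bowtie2 to all combinations of forward and reverse primers by their pipeline. They deposited the raw count of each primer pair, before discarding primers, pooling replicates, binning or normalization, with no molecular identifiers. The deposited fragment positions are mm9, and all 1039 X-chromosomal fragments start and end at HindIII sites of the NCBIM37 sequence used here; genes are from GENCODE vM1 of that build.

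Forward primers (503 of 511) and reverse primers (514 of 528) were kept where their summed count lay between 0.1 and 10 times the median for that primer type, and fragments overlapping the 14 kb deletion were left out of every library. Expected counts came from 40 bins of distance per library. Counts were summed over pairs of 50 kb tiles with a mean of at least 50 and over 25 locus pairs, and the quasi-likelihood model of edgeR 4.0.16 (R 4.3.3) took the log expected count as its offset. All 8 libraries entered, so that the alleles share an estimate of the spread. The standard error was derived from the fold change and its F statistic. Replicates of Chic1-14kbD come from 1 clone, so p-values measure the spread between libraries. Their counts differed by more than sampling noise, as did those of the inversion clones. The edges of the Linx inversion, of Xite and of the TADs were read from figures and are approximate, and the former set the mirrored positions. Members, lists and tests were chosen with earlier results of these data known.

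Named were all locus pairs, the 10 window tile pairs with the smallest p in each direction among calls whose libraries do not overlap, and 1 tile pair per direction in the rest. Of these, 2 lower tile pairs of the window are not reported here. On simulated counts for this contrast over 777 features, edgeR recovered 198 of 200 changed features (99%, log2 fold change 1) with 3 false calls, and 197 by DESeq2 1.42.0 with 4. The simulated counts had a single common spread and no shift tied to the Chic1-14kbD libraries beyond the changed features. In the data 26.8% of the rest of the map passed, so the false calls of the simulation do not carry over to this contrast. Alternatives were TMM library sizes, DESeq2, other decays, coordinates, primer and count filters, tiles, distance limits and libraries, and leaving out each library in turn.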

Additional observations from a re-analysis of the deposited data

Results flagged for a closer look

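Reads were left at the 4 emptied fragments of the Chic1 deletion, which enter no comparison. They numbered 1492 in Chic1-14kbD replicate 1 and 199 in replicate 2, above the 3 counts that a count of 0 allows, or 1.13% and 1.96% of the mean share of reads that these fragments take in the 4 libraries of the inversions. Their source was not tested.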

How the results depend on the processing

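Of the 14 locus pairs that passed, 9 did so in the same direction under all 12 alternatives run on them, namely the contacts of the Linx interval with Tsx, Xite, Tsix and Xist, the Xist-TAD, the left part of Linx and the upstream region, those of the right Chic1 flank with Xite and the upstream region, and Xite with the Xist-TAD. Linx and Xite ranged from 1.40 to 2.01. With library size and TMM factors, 27 tile pairs passed in the window (15 higher) and 95 in the rest (52 higher), and the tile left of the Linx interval lost its calls with the interval tile (-0.36, adjusted p = 0.113) and with itself (-0.42, adjusted p = 0.111), as did the tile right of Jpx with itself (0.46, adjusted p = 0.0592). Tiles of 25 kb gave 82 calls of 477 in the window and 212 of 1963 in the rest, and tiles of 100 kb gave 21 of 40 in the window and 78 of 155 in the rest. Without each library in turn, calls ranged from 36 to 42 in the window and from 95 (without Linx-51kb-INV replicate 2) to 125 in the rest. Reference coordinates moved the balance of the Linx interval from 1.60 to 1.45, and leaving out each library, an alternative chosen after seeing the data, gave 1.51 to 1.69.

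Among locus pairs and named tile pairs, signs turned under these alternatives only for values that had not passed or that rested on single primer pairs. Without primer pairs over 25%, Linx and the Cdx4 side became 0.26, the Cdx4 tile with that of Ftx and Cnbp2 0.50, and the upstream tile with that of Nap1l2 0.19. The right Chic1 flank and the Cdx4 side became 0.32 with TMM and 0.30 with reference coordinates. Without each library in turn, it ranged from -0.064 to 0.0173, the left flank and the Cdx4 side from -0.20 to 0.30, and Xite and the Cdx4 side from -0.0243 to 0.66. No paired analysis was possible, because replicates of a single clone were set against independent clones and the replicate numbers link no libraries between the groups. The low depth of Chic1-14kbD replicate 2, the single clone behind Chic1-14kbD and the title prefixes limit every comparison.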
